A study of Mus musculus with 11 samples.

Results

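The transcriptome of prostates carrying mutant Trp53 without the ERG transgene was compared with that of wild-type prostates in 2 Trp53pcR172H/- libraries and 3 WT libraries, 5 of the 11 libraries of the series. The 5 libraries were chosen by their genotype labels alone, and the other 6 are 3 Pb-ERG libraries and 3 Pb-ERG, Trp53pcR172H/- libraries. All mice were C57BL/6 animals aged 15 months, and RNA came from whole prostate tissue. In Trp53pcR172H/- mice, Cre recombinase driven by the probasin promoter, which is active in prostate epithelium, switches on a mutant Trp53 allele kept silent by a floxed stop cassette and deletes the floxed second allele. Stromal, immune and vascular cells of the same tissue are not expected targets of that Cre, and the sources used here do not say whether the WT animals carried Cre. The Pb-ERG mice carry a transgene that expresses TMPRSS2-ERG, the fusion product of many human prostate cancers, from the same promoter.

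p53 is a transcription factor that is stabilized after DNA damage and other stresses and then induces genes of cell-cycle arrest, DNA repair and apoptosis. The mutant studied here lies in the DNA-binding domain, where substitutions both abolish binding to the usual target genes and, in many tumors, give the protein activities that the wild-type form lacks. The mouse prostate is a set of secretory lobes around the urethra, whose luminal cells release androgen-dependent proteins into the seminal fluid, and it lies beside the seminal vesicles, which secrete a different set of proteins. In bulk tissue, fewer cells of a type and less RNA per cell cannot be told apart.

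Whole fragments could be recovered from the deposited FPKM values (fragments per kilobase of exon, scaled to library size), and the 5 libraries held from 14280978 to 31435034 fragments. The values of the WT libraries correlated with r of 0.963 to 0.975 over genes, and those of the 2 Trp53pcR172H/- libraries with r of 0.940. Luminal markers were present in every library, with Krt18, a keratin of luminal epithelium, at 539, 384 and 463 FPKM in WT and at 579 and 490.1 FPKM in Trp53pcR172H/-. Secretory genes of the prostate set the 2 Trp53pcR172H/- libraries apart from each other. Sbp, which encodes spermine-binding protein, measured 20.8 FPKM in replicate 1 and 41019 FPKM in replicate 2, against 9969, 36007 and 24364 FPKM in WT. Spink1, a secreted trypsin inhibitor, measured 36.4 and 33348 FPKM, against 7652, 21274 and 19857 FPKM. Msmb, encoding beta-microseminoprotein, measured 73.4 and 7875 FPKM, against 5391, 3786 and 2209.9 FPKM. Replicate 1 thus lay far below all WT libraries for these 3 genes and replicate 2 above them, so that the group means say little about either library. The libraries also fell into 2 classes by the share of small non-coding RNA (Rn7sk, Rpph1 and Rmrp), which was 1.69% to 1.76% in WT replicates 1 and 3 and 1.67% in Trp53pcR172H/- replicate 1, but 5.55% in WT replicate 2 and 7.06% in Trp53pcR172H/- replicate 2. Both classes hold both genotypes, and values within a class are given below where a result turns on them.

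Trp53 itself was measured at 4.78, 2.96 and 3.69 FPKM in WT and at 3.15 and 2.55 FPKM in Trp53pcR172H/-. The groups overlapped, with means of 3.81 ± 0.915 (SD, n = 3) and 2.85 ± 0.425 (SD, n = 2). The difference was -0.31 on the log2(FPKM + 1) scale (exact two-sided permutation p = 0.4, where 2 libraries against 3 cannot give less than 0.2). A gene-level FPKM does not tell the mutant from the wild-type allele, so these values do not show recombination. Erg overlapped between the groups, with 0.441 and 0.768 FPKM against 0.457 to 0.851 FPKM in WT and 5.81 to 19.6 FPKM in the 6 libraries with the transgene, as the labels state.

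To measure how far mutant Trp53 alone moved the transcriptome, 15583 genes were tested with limma. Of these, 0 differed at an adjusted p under 0.001, the threshold of the study, and 1 (0.00642%), Sva, had an adjusted p under 0.05, while 251 had an unadjusted p under 0.05, 187 of them higher (1.2%) and 64 lower (0.411%) in Trp53pcR172H/- (230 and 134 after trimmed-mean scaling). The study's methods describe biological replicates, and its supplement reports that 1 Trp53pcR172H/- mouse was dropped for poor data quality. The labels do not tie libraries to animals, so the p-values measure the spread between libraries only. That spread was pooled over all 11 libraries, including those with the transgene. The tests behind these counts have 7 residual degrees of freedom and 2 libraries on one side, and a missed threshold does not show that genes were alike. With limma fitted to the 5 compared libraries alone, 582 genes were higher and 169 lower at an unadjusted p under 0.05. In that fit 0 genes had an adjusted p under 0.001 and 1 under 0.05. Both limma fits left the share of genes with an unadjusted p under 0.05 below 0.05, the share that no effect would give. The median log2 fold change over all genes was 0.01. Without a test, 1774 genes (11.4% of those tested) were higher in both Trp53pcR172H/- libraries than in every WT library, and 902 genes (5.79%) were lower in both. This split depended on the scaling of the libraries, with 1633 higher and 1430 lower after median-of-ratios scaling and 1581 and 1484 after trimmed-mean scaling. Full separation of 2 libraries from 3 has an exact two-sided permutation p of 0.2, so many genes would separate without any effect of genotype. With a log2 difference of at least 1 as well, 135 genes (0.866%) were higher and 36 (0.231%) lower, of which 85 (0.545%) and 17 (0.109%) had a mean of at least 5 FPKM in the higher group. Of the 135 higher genes, 90 lay farther from the WT mean in replicate 1 than in replicate 2, and 61 differed from it by at least 1 in each replicate. Differences between the 2 Trp53pcR172H/- libraries were common, with a median absolute log2 difference of 0.31 per gene, against 0.18 to 0.25 between pairs of WT libraries.

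The highest differences belonged to genes of seminal vesicle secretion. Sva, encoding a small secreted protein of the seminal vesicle that is bound by sperm, was detected with 0, 1 and 0 fragments in WT and with 367 and 136 fragments in Trp53pcR172H/-. Relative to library size the ratio was 585 (95% exact interval 104 to 23137, counting error only). In FPKM, Sva measured 17.9 and 14.6 against at most 0.0944, and the log2 fold change was 4.06 ± 0.319 (SE, limma adjusted p = 0.0011). The adjusted p was 0.0561 without Trp53pcR172H/- replicate 1, 0.118 with a pseudocount of 0.1 and 0.388 with limma-voom on the recovered fragments, each with Sva higher. The other genes of the list, which holds 9 tested members, fell into 2 groups.

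Upstream sequences are shown for 4 genes of this group that were higher in both Trp53pcR172H/- libraries than in every WT library. Of these, 2, Svs3a and Svs3b, are near-identical neighbours whose reads cannot be fully separated. Svs1 and Svs4 were also higher in both libraries and are not shown. Each sequence is the 150 bases before the RefSeq transcription start in GRCm38.p6, read 5′ to 3′ on the gene's strand. Capitals mark TATAAA, the core promoter TATA box, and AGAACA, a half-site of the element bound by steroid hormone receptors, each searched on both strands (as TATAAA or TTTATA and as AGAACA or TGTTCT).
Sva, chr6:42038244-42038393, plus strand: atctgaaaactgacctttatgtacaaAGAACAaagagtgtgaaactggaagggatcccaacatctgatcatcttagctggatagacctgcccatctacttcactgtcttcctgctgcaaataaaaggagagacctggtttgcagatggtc
Svs3a, chr2:164289117-164289266, plus strand: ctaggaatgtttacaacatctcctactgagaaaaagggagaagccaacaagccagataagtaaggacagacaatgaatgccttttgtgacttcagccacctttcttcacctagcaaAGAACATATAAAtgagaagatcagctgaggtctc
Svs3b, chr2:164256644-164256793, minus strand: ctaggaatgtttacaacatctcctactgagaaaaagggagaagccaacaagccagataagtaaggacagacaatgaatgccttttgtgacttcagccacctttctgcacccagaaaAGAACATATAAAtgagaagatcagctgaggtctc
Svs6, chr2:164316601-164316750, plus strand: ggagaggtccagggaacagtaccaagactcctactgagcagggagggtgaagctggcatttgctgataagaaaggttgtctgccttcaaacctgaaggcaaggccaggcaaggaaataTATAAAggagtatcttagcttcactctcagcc
Svs3a and Svs3b were identical at 147 of the 150 positions, and both carried AGAACA starting 34 bases before the start, directly followed by TATAAA. For these 2 genes, unlike Sva and Svs6, the bases just after the RefSeq start did not match a transcript sequence. Their distances therefore rest on the RefSeq start alone. Svs6 held TATAAA starting 32 bases before the start. Sva held AGAACA starting 124 bases before the start, and the exact letters TATAAA were not in its window. Among 27025 RefSeq promoters, TATAAA occurred within the same 150 bases in 8.08% and AGAACA in 9.62%. These matches describe the letters only.

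Svs3a, Svs3b, Svs4 and Svs6 encode semenogelin-like and other secreted proteins of the seminal vesicle and lie in 1 cluster on chromosome 2. The same cluster holds Svs2 and Svs5, which are described below and did not follow them. Svs3a measured 0.0396, 0.512 and 1.79 FPKM in WT and 179 and 96.7 FPKM in Trp53pcR172H/-, a difference of 6.34 ± 1.77 (SE) on the log2 scale with an adjusted p of 1 in limma. Svs3b measured 0.114, 0.0984 and 0.912 FPKM against 88.9 and 37.1 FPKM (5.46 ± 1.15). Both Trp53pcR172H/- libraries were far above every WT library for this pair, and replicate 1 was the higher of them. Svs4 measured 224, 24.6 and 109 FPKM in WT and 5467 and 2490.5 FPKM in Trp53pcR172H/- (5.43 ± 1.97). Svs6 measured 19.4, 1.95 and 7.69 FPKM against 457 and 220.1 FPKM (5.30 ± 1.94). Svs1, which encodes a copper amine oxidase-like protein, measured 0.0342, 0 and 0.0684 FPKM against 23.3 and 1.39 FPKM. In all, 6 of the 9 tested genes of the list did not overlap and were higher (11.4% of all genes), and the list median was 4.06. Sva, Svs3b and Svs1 reached 1 FPKM outside Trp53pcR172H/- in 1 library only, Pb-ERG replicate 1. They thus passed the filter on low values through the group where they were high. The count, the median and the adjusted p of Sva are a description only.

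The remaining 3 members did not follow. Svs2, the major semenogelin-like clotting protein, measured 4563, 80.3 and 5235 FPKM in WT and 217 and 32.5 FPKM in Trp53pcR172H/-. Svs5 measured 3177, 118 and 4864 FPKM against 3601 and 862 FPKM, and Pate4, a small secreted protein that coats sperm, 1423, 60.2 and 2025 FPKM against 862 and 25.1 FPKM. WT replicates 1 and 3 thus held high levels of these 3 genes, while for the other 6 every WT library was below both Trp53pcR172H/- libraries. The summed level of the list was 286 to 12242 FPKM in WT and 10913 and 3780 FPKM in Trp53pcR172H/-, which overlap. One Pb-ERG library also held these transcripts. In Pb-ERG replicate 1, Svs3a measured 303 FPKM, Svs4 9022 FPKM and Svs6 579 FPKM, against at most 0.738, 50.8 and 2.23 FPKM in Pb-ERG replicates 2 and 3, while Sva was at 1.46 FPKM. Seminal vesicle tissue in the dissected samples was not tested and cannot be told apart from expression in the prostate in these data.

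**Figure D1:**
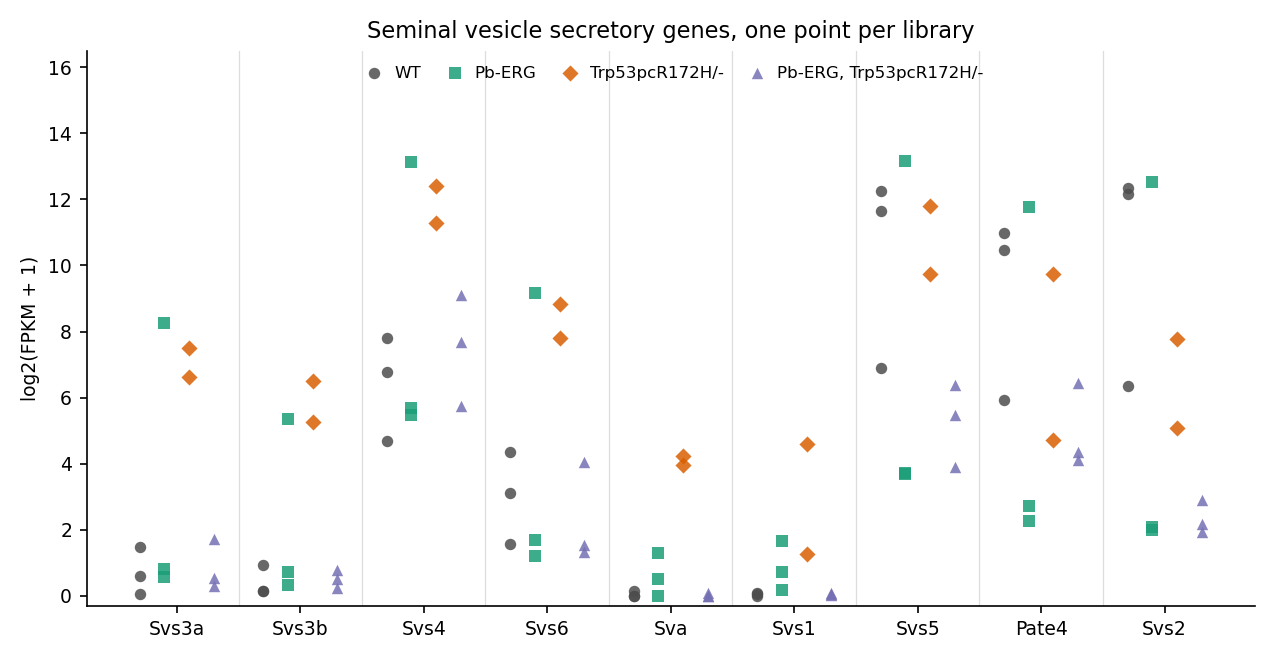
Level of the 9 tested seminal vesicle genes as log2(FPKM + 1) (vertical axis), 1 point per library, with symbols and colors for the 4 genotypes. The Trp53pcR172H/- diamonds lie above all WT circles for Svs3a, Svs3b, Svs4, Svs6, Sva and Svs1, whereas Svs5, Pate4 and Svs2 overlap, and 1 Pb-ERG square (replicate 1) is high for 7 of the genes but low for Svs1 and Sva.

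Other secreted and epithelial genes were next among the 12 largest positive differences without overlap at a mean of at least 5 FPKM. Ceacam10, an adhesion-family protein known from seminal plasma, measured 1.09, 1.77 and 9.29 FPKM in WT and 149 and 39.5 FPKM in Trp53pcR172H/- (log2 fold change 4.32 ± 1.0). Spinkl, a serine protease inhibitor-like protein of seminal vesicle fluid, measured 2.48, 0.829 and 0.534 FPKM against 200.2 and 5.43 FPKM (4.07 ± 1.14). Wfdc15b, a whey acidic protein domain protein, measured 5.40, 1.07 and 5.76 FPKM against 82.5 and 22.8 FPKM (3.32 ± 1.04). Sprr1a, a cornified envelope protein induced in stressed epithelia, measured 0.471, 0 and 0.0785 FPKM against 30.2 and 3.65 FPKM (3.37 ± 0.804). For these 4 genes replicate 1 was the higher library, and for Spinkl and Sprr1a it carried most of the difference. The remaining 3 of the 12, Gm10263, Gm8730 and Gm10800, are pseudogenes or unclassified loci whose reads can come from near-identical copies. Gm10263 measured 36.1, 3.69 and 1.69 FPKM against 119.6 and 225 FPKM.

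The 5 higher genes with the lowest unadjusted p were Sva and Svs3b, described above, H3c2, described below, Il1r2 and Gm25732. Il1r2, the decoy receptor that captures interleukin-1 without signalling, measured 1.39, 0.965 and 0.805 FPKM in WT and 7.28 and 8.38 FPKM in Trp53pcR172H/- (2.11 ± 0.426, limma adjusted p = 1). It held a difference of 2.0 within the class of low small non-coding RNA and of 2.26 within the other. Gm25732, an unclassified short locus, rested on 0 to 3 fragments in WT and on 15 and 12 in Trp53pcR172H/-. Wfdc18, Clu and Wfdc2 were looked at after their values were seen. Clu, a secreted chaperone that is abundant in regressing prostate epithelium, measured 200.1, 34.7 and 168 FPKM in WT and 870.2 and 372 FPKM in Trp53pcR172H/-. Wfdc18 measured 0, 0.825 and 0.972 FPKM against 7.94 and 5.38 FPKM, and 13.6 to 604 FPKM in the 6 libraries with the transgene. Wfdc2, an epithelial whey acidic protein domain protein, measured 8.17, 6.37 and 6.64 FPKM against 26.1 and 19.5 FPKM.

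**Figure D2:**
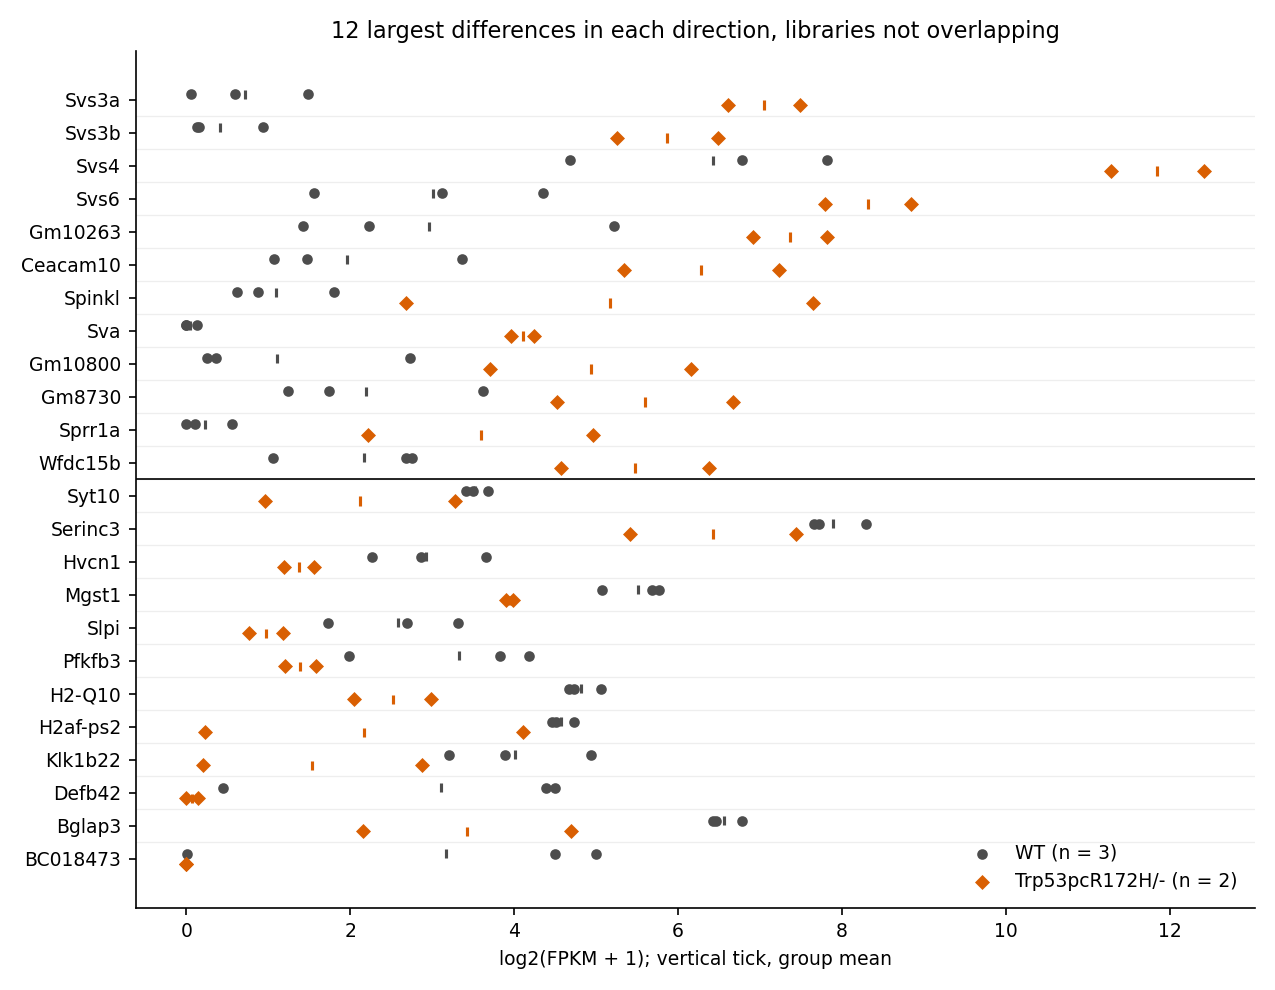
The 12 largest positive (above the line) and 12 largest negative (below the line) differences among genes whose libraries did not overlap, as log2(FPKM + 1) on the horizontal axis, with 1 point per library and a vertical tick at each group mean. Gaps between the groups are wide for Svs3a, Svs3b, Sva, Bglap3 and H2-Q10, whereas Syt10, Serinc3 and H2af-ps2 have 1 Trp53pcR172H/- library close to WT.

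Among genes lower in Trp53pcR172H/-, H2-Q10 had the lowest unadjusted p. H2-Q10, a secreted class Ib histocompatibility molecule, measured 32.5, 24.5 and 25.4 FPKM in WT and 6.92 and 3.13 FPKM in Trp53pcR172H/-, with a log2 fold change of -2.30 ± 0.449 (limma adjusted p = 1). The class I genes are similar in sequence, and reads may be shared among them. Bglap3, a gene of the osteocalcin family, measured 109, 87.5 and 85.4 FPKM against 24.9 and 3.44 FPKM (-3.14 ± 0.836). Mgst1, a microsomal glutathione transferase, measured 53.3, 50.5 and 32.5 FPKM against 14 and 14.9 FPKM (-1.56 ± 0.578). Hvcn1, a voltage-gated proton channel, measured 3.80, 6.27 and 11.6 FPKM against 1.95 and 1.28 FPKM (-1.55 ± 0.392). Both Trp53pcR172H/- libraries were clearly apart from WT for these 4 genes. Ephx1, microsomal epoxide hydrolase, measured 55.2, 48.9 and 60.0 FPKM against 33.3 and 26.3 FPKM (-0.86 ± 0.260).

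Several of the largest negative differences rested on part of the libraries. BC018473, a long non-coding RNA, had 1, 1931 and 2669 fragments in WT and 0 in each Trp53pcR172H/- library. Over the group the level was at least 1319.6-fold lower, against a floor of 3 fragments, yet WT replicate 1 was itself close to 0. Defb42, a beta-defensin of the male reproductive tract, had 285, 4 and 231 fragments in WT and 0 and 1 in Trp53pcR172H/-, with WT replicate 2 low. Syt10 measured 9.68, 10.3 and 11.8 FPKM in WT and 0.948 and 8.69 FPKM in Trp53pcR172H/-, and Serinc3, a membrane protein, 201, 314 and 211 FPKM against 41.8 and 173 FPKM. H2af-ps2, a histone pseudogene, measured 21.0, 21.8 and 25.6 FPKM against 0.168 and 16.3 FPKM. For these 3 genes replicate 1 was low and replicate 2 near the WT range. Klk1b22, a kallikrein of a family with near-identical members, measured 13.8, 29.6 and 8.22 FPKM against 0.149 and 6.31 FPKM. Pfkfb3, a regulator of glycolysis, measured 13.2, 2.94 and 17.1 FPKM against 2 and 1.29 FPKM, and Slpi, a secreted leukocyte protease inhibitor, 2.32, 8.94 and 5.49 FPKM against 1.27 and 0.700 FPKM.

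To ask whether genes induced by wild-type p53 were lower, 38 targets were examined. None of the 38 passed an adjusted p of 0.05, 1 had an unadjusted p under 0.05, and the median log2 fold change was -0.02 against 0.01 over all genes. Of the list, 2 genes did not overlap and were higher (Plk2 and Ddit4), and 4 did not overlap and were lower (Eda2r, Ccng1, Gadd45a and Slc19a2), beside 11.4% and 5.79% of all genes. Eda2r, a death-domain receptor, measured 2.65, 1.72 and 1.46 FPKM in WT and 0.836 and 0.453 FPKM in Trp53pcR172H/- (-0.83 ± 0.245, limma adjusted p = 1). Ccng1, cyclin G1, measured 72.5, 68.4 and 70.0 FPKM against 46.0 and 58.2 FPKM. Ddit4, an inhibitor of mTOR signalling, measured 19.7, 19.6 and 17.6 FPKM against 22.6 and 61.0 FPKM. Gdf15, a secreted stress cytokine, overlapped, with 0.820 to 4.17 FPKM in WT and 1.15 and 1.13 FPKM in Trp53pcR172H/-. Cdkn1a and Mdm2 overlapped between the groups. Cdkn1a, encoding the cell-cycle inhibitor p21, measured 1.58, 0.829 and 1.42 FPKM against 1.14 and 0.409 FPKM, and Mdm2, the ubiquitin ligase of p53, 19.6, 15.6 and 16.3 FPKM against 17.6 and 16.6 FPKM. The exact two-sided permutation p was 0.4 for Cdkn1a and 1 for Mdm2. Among p53 relatives and regulators, Trp63 had a log2 fold change of -0.41 and Mdm4 of 0.11, and both overlapped.

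The 5 genes that the study followed in the double-mutant tumors were near their WT level. Umps, which completes UMP synthesis, measured 1.95, 1.02 and 1.33 FPKM in WT and 1.56 and 1.51 FPKM in Trp53pcR172H/-. Rrm1 and Rrm2, the subunits of ribonucleotide reductase, measured 3.43 to 6.21 and 2.17 to 3.03 FPKM in WT, against 6.17 and 3.98 FPKM and 3.38 and 1.98 FPKM in Trp53pcR172H/-. Tyms, thymidylate synthase, measured 1.17 to 1.65 FPKM against 1.64 and 1.75 FPKM, and Ctnnb1, encoding beta-catenin, 103 to 133 FPKM against 118 and 103 FPKM. All 5 genes overlapped between the groups. Over the 24 tested genes of pyrimidine synthesis the median log2 fold change was 0.11, with 3 genes higher without overlap (Dtymk, Tk2 and Uck1) and 0 lower, beside 11.4% and 5.79% of all genes, a share near the background. Uck1, a uridine-cytidine kinase, measured 14.6, 14 and 14.6 FPKM against 17.2 and 16.1 FPKM. The pyrimidine genes with the largest differences, Cda (0.92), Cmpk2 (0.45), Cad (-0.43) and Nme2 (0.39), overlapped. Over the 26 tested Wnt/beta-catenin genes the median was -0.01, with 2 higher without overlap (Wnt4 and Sfrp1) and 2 lower (Wnt5a and Rnf43), beside the same 11.4% and 5.79%. Wnt4, a secreted ligand, measured 1.70, 1.51 and 2.07 FPKM against 3.44 and 3.14 FPKM. Wnt5a, a ligand of non-canonical signalling, measured 2.5, 2.37 and 2.66 FPKM against 1.72 and 1.53 FPKM.

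Cell-cycle genes tended to higher values at very low levels. Of 30 tested, 26 had a log2 fold change above 0, against 8208 of all 15583 genes, and 8 were higher without overlap (11.4% of all genes), with 0 lower (5.79%) and 0 past the adjusted threshold. Cdk1, the mitotic kinase, measured 0.447, 0.413 and 0.489 FPKM in WT and 1.86 and 1.22 FPKM in Trp53pcR172H/- (0.80 ± 0.217, limma adjusted p = 1). Cdc20, an activator of the anaphase-promoting complex, measured 0.689, 0.171 and 0.600 FPKM against 3.18 and 0.742 FPKM, and Ccnb1, cyclin B1, 0.477, 0.148 and 0.356 FPKM against 1.28 and 0.675 FPKM. Aurkb, the kinase of the chromosomal passenger complex, measured 0.413, 0.314 and 0.421 FPKM against 1.17 and 0.716 FPKM. In these genes replicate 1 was always the higher library, and the list median was 0.47 for replicate 1 and 0.04 for replicate 2. Mki67, the common proliferation marker, overlapped, with 0.471, 0.274 and 0.402 FPKM against 1.16 and 0.410 FPKM.

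Histone genes were examined after H3c2 had been named for its low p and after the values of its family were seen, so no test is given. Replication-dependent histone genes are transcribed in S phase from large clusters, and most of their mRNAs end in a stem-loop instead of a poly(A) tail. H3c2, a histone H3 gene, measured 1.07, 0.595 and 1.02 FPKM in WT and 6.46 and 3.84 FPKM in Trp53pcR172H/- (1.67 ± 0.309, limma adjusted p = 1). Of 57 tested genes named H1f, H2ac, H2bc, H3c or H4c, 33 were higher without overlap, beside 11.4% of all genes, 2 were lower (H3c14 and H3c15), and the median log2 fold change was 0.59. H2bc3, a histone H2B gene, measured 6.83, 7.2 and 7 FPKM in WT against 19.99 and 18 FPKM, and H2ac20, a histone H2A gene, 11, 11.8 and 11.7 FPKM against 28.5 and 26.1 FPKM. In both, the WT libraries lay close together and both Trp53pcR172H/- libraries well above them. Unlike the cell-cycle list, the histone genes deviated from the WT mean by the same amount in both Trp53pcR172H/- libraries, with a median of 0.61 in replicate 1 and 0.60 in replicate 2. Within the 2 classes of small non-coding RNA the median difference was 0.61 and 0.57. Those of chromosome 13 accounted for 47 of the 57 genes and 29 of the 33, and 4 came from the 8 genes of chromosome 3. Histone genes have near-identical copies, so the value of a single one is uncertain.

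**Figure D3:**
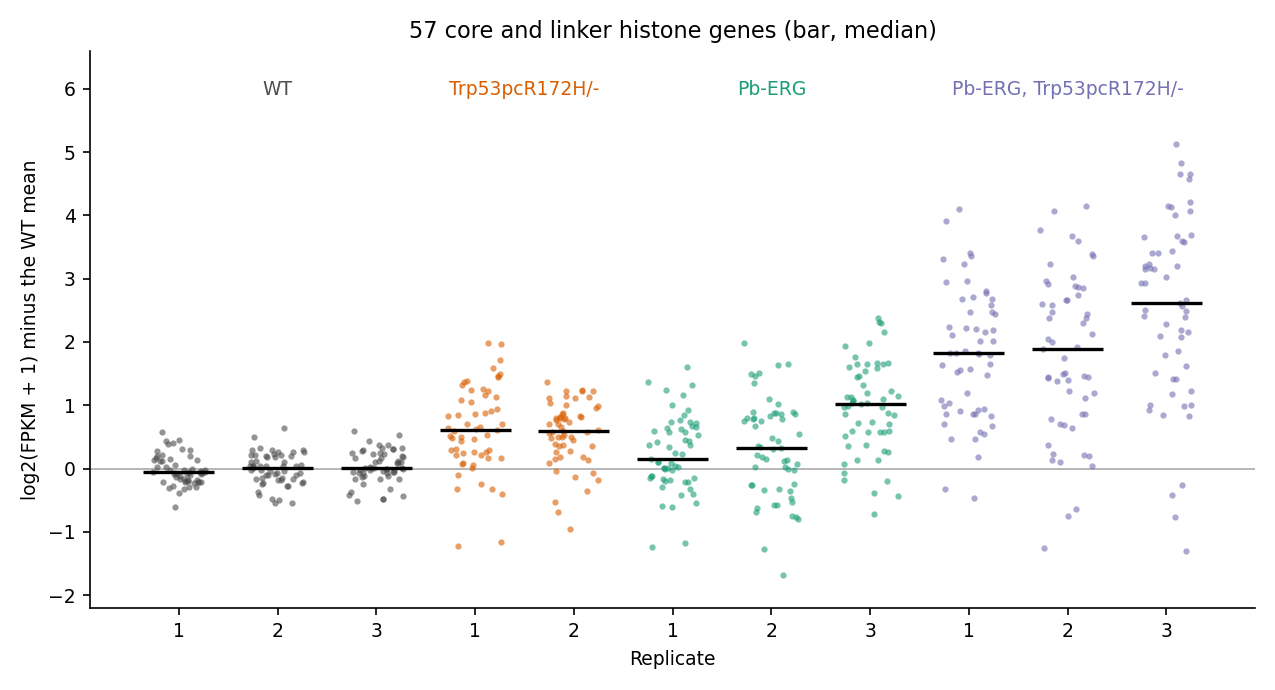
Deviation of 57 histone genes from the WT mean on the log2(FPKM + 1) scale (vertical axis), 1 point per gene and a bar at the median, for each of the 11 libraries. The WT medians lie between -0.06 and 0.02, partly because these libraries define the mean, both Trp53pcR172H/- medians are near 0.6, the Pb-ERG medians run from 0.16 to 1.02, and those of Pb-ERG, Trp53pcR172H/- from 1.82 to 2.62.

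Chaperones of the endoplasmic reticulum leaned the other way. Of 22 tested genes of the unfolded protein response, which expands the folding capacity of secretory cells, 10 were lower without overlap, beside 5.79% of all genes, 2 were higher, and the median was -0.46, with 0 past the adjusted threshold and 0 with an unadjusted p under 0.05. Hspa5, the chaperone BiP, measured 1263, 1524 and 2411 FPKM in WT and 714 and 1199 FPKM in Trp53pcR172H/- (-0.85 ± 0.678). Hsp90b1, its partner GRP94, measured 950.4, 688 and 1253 FPKM against 651 and 481 FPKM, and Sel1l, an adaptor of protein degradation at this organelle, 76.8, 62.4 and 96.4 FPKM against 51.5 and 34.2 FPKM. The higher genes, Trib3 and Atf4, belong to the branch that also responds to amino acid supply. Trib3 measured 1.38, 1.58 and 1.31 FPKM against 2.47 and 4.63 FPKM. The list median was -0.51 for replicate 1 and -0.52 for replicate 2. It was -0.66 within the class of low small non-coding RNA and -0.28 within the other. Creld2, a chaperone-like protein with the largest difference of the list (-0.94), overlapped.

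Genes of prostate luminal secretion and identity differed between the 2 Trp53pcR172H/- libraries. Slc45a3, a prostate transporter gene, was lower without overlap, with 46.1, 40.8 and 51.2 FPKM in WT and 33.9 and 35.0 FPKM in Trp53pcR172H/-. Spink1 (-3.73 ± 2.84) and Msmb (-2.22 ± 1.64) spread over orders of magnitude within the genotype as given above. Psca, a surface antigen of prostate and bladder, overlapped, with 6.36 to 14.1 FPKM against 44.9 and 12.5 FPKM. Krt8, the keratin partner of Krt18, was higher without overlap, with 148, 104 and 128 FPKM against 277 and 156 FPKM. Among 8 basal markers, Dst was lower without overlap, and the median was -0.01.

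Interferon-stimulated genes were high mainly in replicate 1. Of 24 tested, 22 had a log2 fold change above 0, against 8208 of all 15583 genes. Without overlap, 6 were higher and 1 (Cxcl9, below 0.3 FPKM in all 5 libraries) lower, beside 11.4% and 5.79% of all genes, with a median of 0.45 and 0 past the adjusted threshold. Isg15, a ubiquitin-like modifier, measured 1.19, 1.95 and 2.26 FPKM in WT and 11.2 and 3.70 FPKM in Trp53pcR172H/- (1.46 ± 0.875). Irf7, the transcription factor that amplifies interferon production, measured 2.24, 2.21 and 2.80 FPKM against 14.2 and 4.36 FPKM, and Usp18, which removes Isg15 from proteins, 1.5, 1.08 and 2.54 FPKM against 8.79 and 2.61 FPKM. The median was 0.82 for replicate 1 and 0.11 for replicate 2. Of the 9 markers of T and NK cells, 6 were tested and 0 passed the adjusted threshold. Gzma, Nkg7, Cd3g and Cd8b1 were higher without overlap (11.4% of all genes), while Cd3d and Cd8a overlapped. The summed level of the list was 8.40 and 7.86 FPKM against 1.73 to 4.64 FPKM in WT. Below the filter on low values, the defining markers Cd3e (0.0886 and 0.195 FPKM against 0 to 0.0882), Cd4 (0.102 and 0.248 against 0.0815 to 0.376) and Klrb1c (0.0242 and 0.16 against 0.0722 to 0.187) were near 0 in both groups and overlapped for Cd4 and Klrb1c. Nkg7, a granule protein of cytotoxic lymphocytes, measured 0.216, 0.140 and 0.0721 FPKM against 1.38 and 0.957 FPKM. B and plasma cell markers summed to 24.4 and 4.82 FPKM against 2.14 to 11.8 FPKM, mostly from Jchain. The part of lymphocytes in the interferon values was not tested.

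Immediate early genes, which are transcribed within minutes of stimulation and of tissue handling, overlapped in part. Of 17 tested, 7 did not overlap and were higher and 0 were lower, beside 11.4% and 5.79% of all genes, 10 overlapped, 0 passed the adjusted threshold, and the median was 0.33. Jun measured 9.28, 7.67 and 5.60 FPKM in WT and 14.2 and 16.4 FPKM in Trp53pcR172H/- (0.95 ± 0.382), Atf3 12.3, 10.8 and 9.73 FPKM against 21.5 and 23.0 FPKM (0.97 ± 0.394), and Fos 1.33, 0.874 and 1.02 FPKM against 2.34 and 2.09 FPKM. Both replicates were above WT for these 3 transcription factor genes. In Pb-ERG replicate 1 Fos reached 129 FPKM.

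None of the markers of other cell types passed the adjusted threshold. All 10 smooth muscle genes had a log2 fold change above 0 and all overlapped, with a median of 0.24, which was -0.07 for replicate 1 and 0.63 for replicate 2. The 9 fibroblast genes overlapped, with a median of -0.09. Endothelial Emcn, an endomucin gene, measured 5.52, 3.85 and 3.60 FPKM in WT and 8.40 and 7.47 FPKM in Trp53pcR172H/-, while the median of the 8 endothelial genes was 0.07. Erythroid Hba-a2 measured 3.86, 1.22 and 0.229 FPKM against 4.13 and 11.8 FPKM, with a list median of 0.79 and a summed level of 93.2 to 194 FPKM in WT against 127 and 458 FPKM. Adipocyte genes followed single libraries in both groups, with a summed level of 48.0, 346 and 26.9 FPKM in WT and 197 and 52.0 FPKM in Trp53pcR172H/-. Uroplakin genes of the urothelium went both ways. Upk3b measured 0.425, 4.84 and 3.75 FPKM against 0 and 0.0597 FPKM, whereas Upk2 measured 0.761, 0.563 and 0.87 FPKM against 1.53 and 0.882 FPKM. Upk3a, below the filter, measured 0.0859, 0.0555 and 0 FPKM against 1.38 and 0.443 FPKM, and Upk1a and Upk1b overlapped. Differences were above 0 for 5 of 5 erythroid, 5 of 5 skeletal muscle (median 0.29) and 7 of 8 macrophage genes (0.24), and below 0 for 5 of 5 neutrophil (-0.15), 4 of 4 neuroendocrine (-0.28) and 3 of 5 nerve and Schwann genes (-0.04), against 8208 of all 15583 genes above 0.

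**Figure D4:**
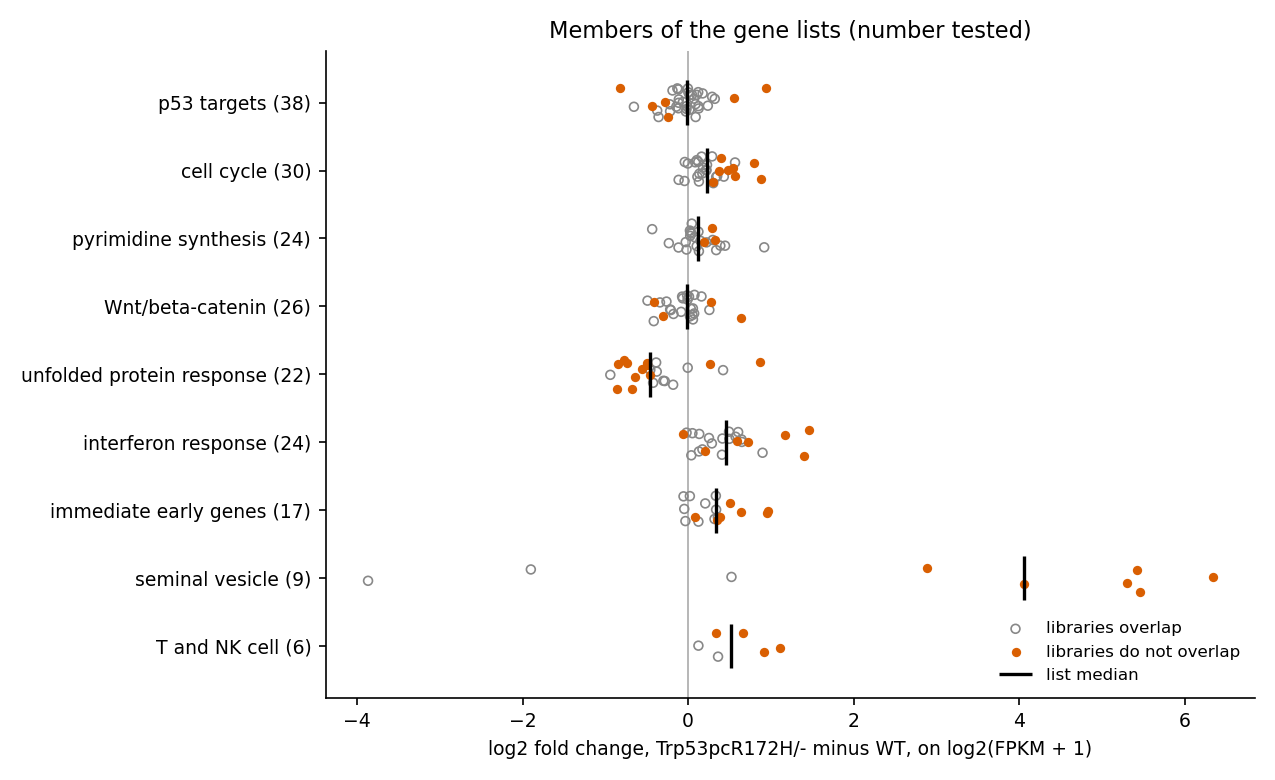
Log2 fold change of each tested member of 9 gene lists between Trp53pcR172H/- and WT (horizontal axis), with filled points for genes whose libraries do not overlap, open points for those that do and a bar at the list median. The p53 targets and Wnt genes center near 0, the unfolded protein response lies to the left with a median of -0.46, and 6 of 9 seminal vesicle genes lie above 2.

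To see whether the same genes moved when mutant Trp53 was combined with ERG, the difference between Pb-ERG, Trp53pcR172H/- and Pb-ERG was set beside these values. That comparison shares no library with the one above, although all its Pb-ERG, Trp53pcR172H/- libraries have high and all its Pb-ERG libraries low small non-coding RNA, so that class and genotype cannot be told apart there. Of the 135 genes higher without overlap by at least 1, 90 (66.7%) also had a difference above 0 within Pb-ERG, against 56.7% of all genes. Of the 36 lower genes, 26 (72.2%) had a difference below 0, against 43.3% of all genes. Without overlap, 35 of the 135 were higher and 8 of the 36 lower in that background too, where 2586 of all genes were higher and 1227 lower. Among named genes, Ceacam10 (2.94), H3c2 (2.37) and Il1r2 (0.53) were above 0 there and Bglap3 (-1.74), Ephx1 (-2.07) and H2-Q10 (-0.58) below, whereas Svs3a (-2.35), Svs6 (-1.73) and Spinkl (-1.17) had the opposite sign. Of the 57 histone genes, 55 were above 0 within Pb-ERG with a median of 1.67, where the median of all genes was 0.08. The unfolded protein response had a median of -0.68, the cell-cycle list of 1.03 and the interferon list of 1.11.

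The difference between the 2 backgrounds was itself tested as an interaction. At an adjusted p under 0.05, 73 genes (0.468%) differed, and 0 did at 0.001. Among the genes named by size or p, Sva alone was past 0.05, with an interaction of -4.63 (SE 0.428, limma adjusted p = 0.00283). Its level was 0, 0.0566 and 0 FPKM in Pb-ERG, Trp53pcR172H/- and 1.46, 0.414 and 0 FPKM in Pb-ERG. Sva was named for its difference from WT, which is part of this interaction, and passed the filter on low values through Trp53pcR172H/-. The interaction is therefore not independent of that choice, and its p-value is a description only. For H3c2 the interaction was 0.70 (adjusted p = 0.656), and for H2-Q10 1.73 (adjusted p = 0.32).

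**Figure D5:**
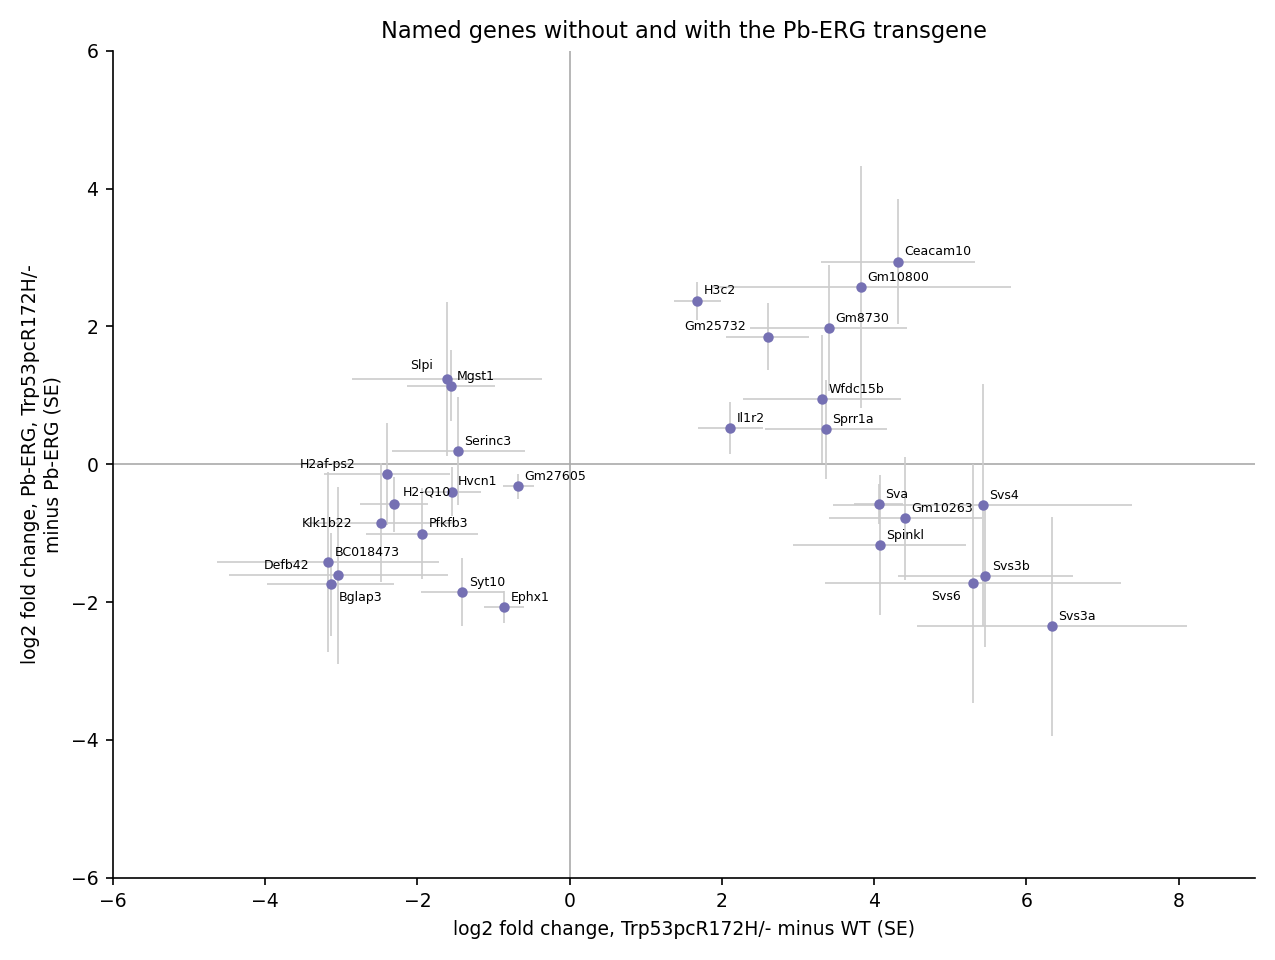
Log2 fold change associated with Trp53pcR172H/- without (horizontal axis) and with (vertical axis) the Pb-ERG transgene for the genes named by size or p, with bars of 1 SE. Ceacam10, H3c2 and Il1r2 lie in the upper right and Bglap3, Ephx1 and H2-Q10 in the lower left, whereas the seminal vesicle genes Sva, Svs3a, Svs3b, Svs4 and Svs6 lie below 0 on the vertical axis. For Svs3a, Svs3b, Svs4 and Svs6, Pb-ERG replicate 1 was far above the other Pb-ERG libraries.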

How the data were processed

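RNA was extracted from whole prostate tissue of 11 mouse libraries, 2 Trp53pcR172H/-, 3 WT, 3 Pb-ERG and 3 Pb-ERG, Trp53pcR172H/-, grouped by their genotype labels. The authors deposited 1 FPKM value per gene and library. The submitters' processing notes name STAR 2.5.2b and the builds GRCm38 and mm10, while the study's methods give a different STAR version and name RSeQC for counting. FPKM scales each library to its own total, so a few very abundant secretory transcripts can lower all other values. Libraries were made with a TruSeq RNA kit, and whether reads were counted by strand is not given in the sources used here.

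Genes reaching 1 FPKM in 2 or more of the 11 libraries were kept. Values of log2(FPKM + 1) were fitted with limma 3.58.1 (R 4.3.3), with 1 mean per genotype and 7 residual degrees of freedom. A trended prior was used, with Benjamini-Hochberg adjustment over all genes tested. The fit was also run on simulated fragments drawn around the WT means with the same spread for all genes. Those lack the differences between replicate libraries seen here, and no result rests on them. The pseudocount understates the change of low genes. Genes were called at an adjusted p under 0.001. A gene did not overlap when both Trp53pcR172H/- libraries were above, or both below, all 3 WT libraries. Genes were named if they were engineered or followed by the study, had an adjusted p under 0.05, were among the 12 largest differences or the 5 lowest p in each direction (no overlap, mean of at least 5 FPKM in the higher group), or were among the 4 largest differences of a list. Further list members were named for their role after their values were seen. Members and gene lists were chosen with earlier results of these data known, so list counts carry no test. Fragments were recovered as whole multiples of the smallest FPKM step, and intervals on them cover counting error only. Alternatives varied the pseudocount, filter, scaling, variance model, library weights, covariates and libraries. Sequences came from RefSeq (GRCm38.p6). Some genes and the lists that turn on them are not reported here.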

Additional observations from a re-analysis of the deposited data

Results flagged for a closer look

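The difference of Sva between Trp53pcR172H/- and its control was not the same with and without the Pb-ERG transgene. Without the transgene Sva was 4.06 higher on the log2(FPKM + 1) scale, whereas Pb-ERG, Trp53pcR172H/- minus Pb-ERG gave -0.57. The interaction was -4.63 (limma adjusted p = 0.00283), and it was past 0.05 in 15 of 16 alternatives, with adjusted p from 0.000138 to 0.0973 and values from -10.51 to -2.23. Both Trp53pcR172H/- libraries were at 14.6 FPKM or more, and each of the other 9 libraries was at 1.46 FPKM or less. Sva was named for its difference from WT, which is part of the interaction, and it passed the filter on low values through Trp53pcR172H/-. The interaction is therefore not independent of that choice. Because the alternatives refit the same libraries, the number of them past 0.05 is a description only.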

How the results depend on the processing

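With 2 libraries against 3, the number of calls moved with the settings. At an adjusted p under 0.001 the count went from 0 to 1 (Sva) with a pseudocount of 5, with the filter applied to the 5 libraries, with array weights or at a threshold of 0.05, and stayed 0 in the other fits. At 0.05 the count of 1 became 0 with a pseudocount of 0.1 and with limma-voom, and 2 without a filter (Gm5814 and Sva). Leaving out 1 library gave 0 to 5 calls at 0.05, with 0 without Trp53pcR172H/- replicate 1, 5 without replicate 2 (Crabp1, H2af-ps2, Spinkl, Sva and Svs1) and 4 without WT replicate 1 (A730032A03Rik, Gm26812, Sva and Wfdc12). Interaction calls at 0.001 went from 0 to 2 with a pseudocount of 5, 1 without a filter and 4 with array weights. Genes higher without overlap numbered 721 at 5 FPKM or more, 135 at a log2 difference of at least 1 and 2926 without a filter, and 2244 to 5337 with 1 library left out. Those lower numbered 461, 36 and, after median-of-ratios or trimmed-mean scaling, 1430 or 1484, and 1262 to 4962 with 1 library left out. Fewer libraries make non-overlap easier by construction.

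Values near 0 changed sign. Erg was -0.048 with the replicate block, -0.044 with the class covariate and -0.062 with limma-voom, and Rrm1 was -0.048 with array weights. Without 1 library, Erg ran from -0.14 to 0.16, Umps from -0.048 to 0.22, Rrm1 from -0.24 to 0.28, Rrm2 from -0.25 to 0.30 and Ctnnb1 from -0.17 to 0.025. The other followed genes kept their direction in every alternative fitted. The replicate block, for which the 2 pairs share only a number, gave 0 calls at 0.001, 1 at 0.05 and 358 genes at an unadjusted p under 0.05, against 251. Within these pairs the deviations from the group means correlated with r of 0.234 and 0.351. With 2 Trp53pcR172H/- libraries their deviations mirror each other by construction, so these r values do not settle whether the libraries were paired.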
